A study of Mus musculus with 14 samples.

Results

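The Pax genes and the non-Hox homeobox genes of the Lhx, sine oculis (Six2, Six3, Six5 and relatives), Dlx, Irx, Nkx, Pitx, Otx, Alx, Emx, Vax, Gbx, Gsx, En, Msx and Barx families were followed through chromatin maps of mouse blood progenitors with and without UTX. Membership was decided by gene symbol, leaving out Pax5, and the members numbered 71 of 21887 protein-coding genes in the RefSeq table of build GRCm38.p6. The cells were lineage-depleted (Lin-) bone marrow progenitors from mice of the C57BL/6 strain, of the genotypes UTX WT and UTX KO. UTX, the product of the X-linked gene Kdm6a, removes methyl groups from lysine 27 of histone H3. H3K27me3 and H3K27ac were each measured by ChIP-seq in 2 WT and 2 KO libraries, UTX in 2 WT libraries, and 1 WT library with a non-specific antibody (IgG), named after a BCOR precipitation in its title, gave the background. The labels give no age, sex, driver of the deletion or number of animals per library, and they do not say that replicates came from separate animals, so every p-value below measures the spread between libraries only.

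Homeobox and Pax genes encode DNA-binding factors that lay down the body plan and specify organs such as the brain, eye, kidney, pancreas, limb and heart. Outside the tissues that use them they are classic targets of Polycomb complexes, which deposit H3K27me3 over them, whereas H3K27ac marks active promoters and enhancers. A demethylase such as UTX works against the Polycomb mark, and the comparison asks where the marks of these genes stand in progenitors that lack it.

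The values are reads in enriched stretches (islands) that SICER called in each library. H3K27me3 libraries held 2347442 to 2743508 reads in islands, H3K27ac libraries 9330823 to 15256696, the UTX libraries 816567 and 1834418, and the IgG library 154029. H3K27ac marked all 9 progenitor genes of a marker list (Kit, Cd34, Flt3, Gata2, Runx1, Meis1, Spi1, Mpo and Cebpa) in every library. It also marked all 4 erythroid genes and 3 of 4 B cell genes in every library, against 56.4% of all genes. No library had an H3K27ac island at 3 of 4 neural genes (Sox1, Neurod1 and Rbfox3) or 3 of 4 T cell genes (Cd3e, Cd4 and Cd8a). The same held for 3 of 5 stromal, bone and endothelial genes (Col1a1, Pdgfra and Cxcl12). Yet 1 T cell gene and 1 of the stromal, bone and endothelial genes were marked in every library. The remaining neural gene, Tubb3, had H3K27ac islands in the WT libraries and in no KO library. Of 4 mature granulocyte and monocyte genes 1 was marked in every library and 1 (Ly6g) in none. Markers of other blood lineages moved with genotype. The summed H3K27ac of 4 erythroid genes was 425.7 to 457.4 rpm (reads scaled to all island reads of the library) in WT and 214.0 to 225.4 in KO, that of 4 B cell genes 116.5 to 132.6 and 302.4 to 425.0, and their part in the results below was not tested. H3K27me3 islands met 4 of the 9 progenitor genes in every library. The summed H3K27me3 of the 9 was 349.6 to 457.7 rpm in WT and 686.9 to 897.6 in KO. That of the 4 B cell genes went the other way, from 432.4 to 434.5 rpm in WT and 173.5 to 299.5 in KO. In such bulk samples fewer cells with a mark and less of the mark per cell cannot be told apart. Kdm6a itself held H3K27ac islands with 1840 and 1562 reads in the WT libraries and 2674 and 2059 reads in the KO libraries, so island lists could not check the genotype labels.

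All 71 genes carried H3K27me3 in all 4 libraries. A gene counted as marked when an island met its span plus 2 kb on either side by at least 1 bp, and 22.4% of all protein-coding genes were marked in every library by that measure. Among other developmental factors, 38 of 39 Hox genes (97.4%) and 54 of 76 Sox, Fox and Tbx genes (71.1%) were marked in every library. A gene with islands in the 2 WT libraries and in no KO library was called lost, and the reverse gained. Since all 71 were marked in every library, none could count as lost (1.95% of all genes) or gained (0.429% of all genes). Of all genes, 27.2% were marked in both WT libraries and so could be lost. No member, then, passed between marked and unmarked with the genotype. The call does not follow single islands within a window.

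**Figure D1:**
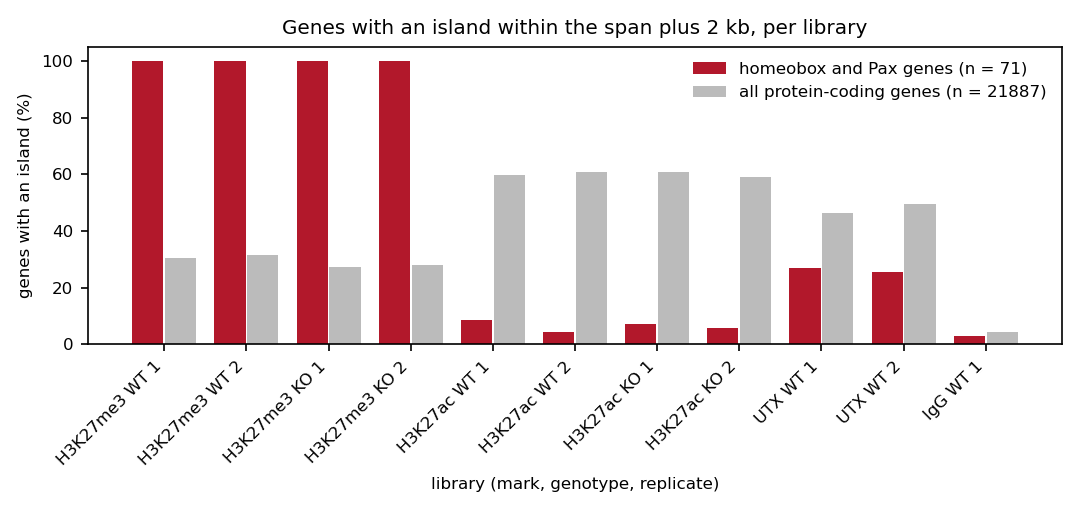
Percent of genes (vertical axis) with an island over the gene span plus 2 kb in each of the 11 libraries (horizontal axis), for the 71 homeobox and Pax genes (red) and all 21887 protein-coding genes (grey). The red bars stand at 100% in the 4 H3K27me3 libraries and between 4.23% and 8.45% in the 4 H3K27ac libraries, where the grey bars stand between 59.0% and 60.9%.

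H3K27me3 covered most of these gene windows almost whole, but not all of them. The median share of the window under islands was 100% in each of the 4 libraries, and 45 of 71 windows (63.4%) were at least 90% covered in every library. Over all genes that share was 1.42%, and over the 4910 genes marked in every library it was 6.33%. Hox genes reached 84.6% and Sox, Fox and Tbx genes 34.2%. These shares were not matched for gene length, and 1 island covered the whole window of short genes such as Gsx1 (2.252 kb). The mean cover of the 71 windows was 89.4% ± 0.316 in WT and 88.2% ± 2.59 in KO (SD, n = 2 each), a difference smaller than the spread of the KO libraries. KO replicate 1 was the lowest, with 46 members at least 90% covered against 51 and 52 in WT and 53 in KO replicate 2.

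The least covered members were long genes. Pax8, a thyroid and kidney factor, had 30.48% and 25.49% of its window under islands in WT and 21.68% and 17.95% in KO. Barx2 had 29.60% and 27.63% in WT and 24.54% and 19.21% in KO. Pax3, a factor of neural crest and muscle precursors, had 25.17% and 27.77% in WT and 24.37% and 39.99% in KO. The Pax genes as a family were the least covered, with 1 of 8 at or above 90% in every library (Pax1), whereas all 6 Dlx genes, 5 of 6 Irx genes and 10 of 14 Nkx genes reached it.

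To compare amounts, islands of the 4 H3K27me3 libraries were merged where they overlapped, and the 6771 merged regions with an island in every library were tested together. All 71 genes met a tested region, in 66 distinct regions, because 5 regions held a pair of neighbours, among them Dlx1 with Dlx2, Dlx3 with Dlx4, Dlx5 with Dlx6 and Six2 with Six3. The regions were wide, with a median of 34.2 kb against 10.4 kb for all tested regions. Of the 500 widest regions 45 belonged to these genes, and of the 500 with the most reads 55. The level per length was also high, with a median of 20.68 CPM (edgeR's depth-scaled counts) per covered kb against 13.31. Within that scale the Dlx1 and Dlx2 region stood highest (32.50) and the region of Pax4, a pancreatic islet factor, lowest (12.10).

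None of the 66 regions passed the test between genotypes, which does not show that they were equal. edgeR's quasi-likelihood test called 1 of 6771 regions genome-wide (0.0148%) at an adjusted p under 0.05, and 0 of the 66. At an unadjusted p under 0.05 it found 1 of the 66 (Six5) against 7.64% of all regions, and DESeq2 also called 0 of the 66, against 0.487% of all regions. The fold changes of the 66 regions (log2, KO over WT) ran from -0.31 at Emx1 to 0.49 at Six5, with a median of 0.02 and a median size regardless of sign of 0.10. For all tested regions the median was 0.00 and the median size 0.25, or 0.19 among the 2860 regions with at least as many reads as the weakest member region. All 66 estimates stayed within 2-fold either way when 2 standard errors (SE) were added on each side, the widest limits being -0.86 and 0.84. This held for 52.0% of all tested regions. The limits are relative to the other tested regions, since TMM scaling removes a shift that most regions share.

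**Figure D2:**
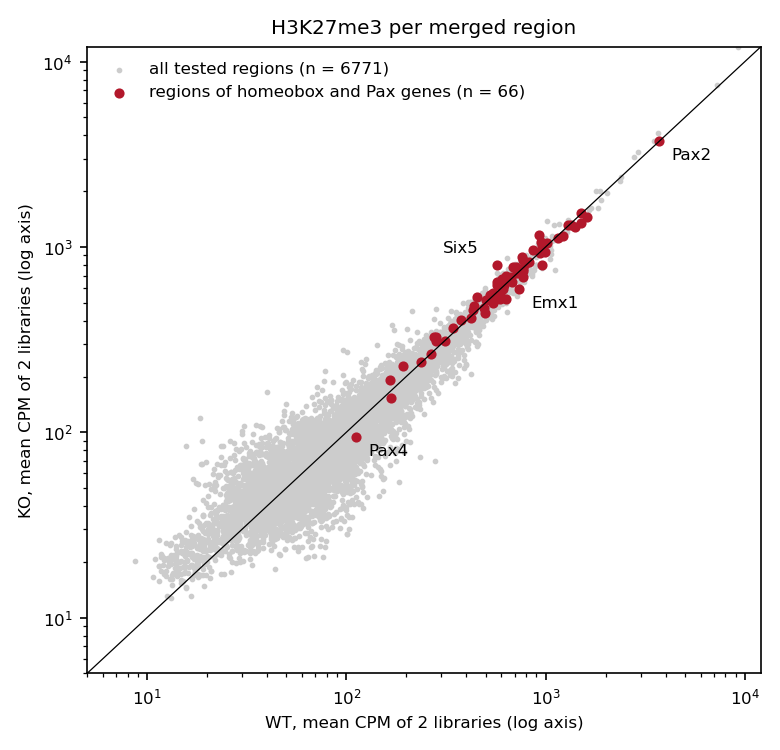
Mean H3K27me3 CPM of the 2 WT libraries (horizontal, log axis) against that of the 2 KO libraries (vertical, log axis) for each of 6771 merged regions (grey) and the 66 regions of homeobox and Pax genes (red), with the line of equal values. The red points lie at the upper end of the cloud and along the line, from Pax4 at the bottom to Pax2 at the top.

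Libraries of 1 genotype also differed from each other. The median size of their log2 difference over the 66 regions was 0.25 between the WT libraries and 0.09 between the KO libraries. For the fold change between genotypes it was 0.10, which compares groups of 2 libraries and not single libraries, so these sizes are not on a like scale. WT replicate 2 lay above WT replicate 1 in 56 of the 66 regions, with a median log2 ratio of 0.24, whereas over all regions that median was -0.01. KO replicate 2 lay above KO replicate 1 in 48 of the 66, with a median of 0.07. In 14 of the 66 regions (21.2%, against 38.4% of all regions) the 2 WT and the 2 KO libraries did not overlap, 7 of them higher and 7 lower in KO. The sign of the fold change was higher in KO in 39 regions and lower in 27, and this count turned on a single library. Without WT replicate 1 it was 16 higher and 50 lower (median -0.09), and without WT replicate 2 it was 52 higher and 14 lower (median 0.13). Without TMM scaling it was 54 higher and 12 lower (median 0.14, that of all regions being 0.12), so the signs counted per family below hold for TMM scaling.

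Among the Pax genes, Pax2, a regulator of kidney and optic stalk development, sat in the widest member region (223.6 kb). Its region held 3610 and 3839 CPM in WT and 3733 and 3724 CPM in KO, with both KO libraries between the WT libraries. Pax7, a factor of muscle stem cells, held 1515 and 1481 CPM in WT and 1443 and 1594 in KO. Pax6, the eye and brain factor, held 1009 and 1426 CPM in WT and 1140 and 1141 in KO. In all 3 genes the groups overlapped, and the 8 Pax regions had fold changes from -0.25 (Pax4, SE 0.31) to 0.14 (Pax3, SE 0.15).

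The LIM homeobox (Lhx) genes encode factors of motor neurons, forebrain and limb. Lhx2 held 1291 and 1513 CPM in WT and 1373 and 1201 in KO, with overlapping groups. Lhx5 held 1621 and 1606 CPM in WT and 1398 and 1520 in KO, and Lhx1, needed for head and kidney formation, 1462 and 1534 in WT and 1350 and 1352 in KO. In these 2 genes both KO libraries lay below both WT libraries, by -0.15 on the log2 scale in each (SE 0.13, edgeR adjusted p = 0.82 and 0.81). The sign was lower in KO in 7 of 8 Lhx regions, and the largest of these values was -0.16 (Lhx6, SE 0.15).

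In the sine oculis family, whose members act with Eya cofactors in eye, muscle and ear development, all 5 regions had a sign higher in KO, from 0.02 to 0.49. The shared Six2 and Six3 region held 1211 and 1392 CPM in WT and 1361 and 1269 in KO, with overlapping groups. Six5, a lens and muscle gene next to the kinase gene Dmpk, had the highest value of all members. Its region held 467.7 and 668.5 CPM in WT and 784.8 and 806.5 in KO, so both KO libraries lay above both WT libraries. The fold change of 0.49 (SE 0.18) had an unadjusted p of 0.0207 and an edgeR adjusted p of 0.536, and it was 0.25 without WT replicate 1 and 0.77 without WT replicate 2.

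The Dlx genes, which pattern forebrain interneurons, jaw and limb, lie in convergent pairs and gave 3 regions. The Dlx1 and Dlx2 region held 947.8 and 1371 CPM in WT and 1053 and 1180 in KO, so the 2 WT libraries enclosed both KO libraries. The other two pairs had values of 0.17 (Dlx3 and Dlx4) and 0.15 (Dlx5 and Dlx6), with SE 0.15 and 0.14. The Irx genes, which act in heart, limb and spinal cord patterning, had a sign lower in KO in 5 of 6 regions. Irx3 was the lowest of them, with 608.5 and 656.5 CPM in WT and 471.1 and 576.3 in KO (-0.27, SE 0.16, edgeR adjusted p = 0.73). The groups of Irx3 did not overlap, but per covered length its fold change turned positive (0.68).

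The 14 Nkx genes, factors of heart, thyroid, lung, pancreas and ventral neural tube, lay in 13 regions. Of these 12 had a sign higher in KO, from 0.00 to 0.24, and Nkx6-2 was lower at -0.17 (SE 0.16). Nkx2-5, the heart factor, held 929.4 and 1108 CPM in WT and 1028 and 1086 in KO, with overlapping groups. In no Nkx region were the 2 groups of libraries apart.

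The paired-like, forebrain and midbrain, and Msx and Barx families held other extremes. Emx1, a cortical factor, held 760.8 and 706.2 CPM in WT and 553.6 and 632.0 in KO (-0.31, SE 0.15, edgeR adjusted p = 0.66). Barx1, a stomach and tooth factor, held 882.7 and 1035 CPM in WT and 786.3 and 816.3 in KO (-0.26, SE 0.14, edgeR adjusted p = 0.71). In these 2 genes the groups did not overlap, yet neither passed the test. Per covered length the fold changes turned positive, to 0.22 at Emx1 and 0.30 at Barx1. En2, a midbrain and cerebellar factor, held 1264 and 1429 CPM in WT and 1333 and 1310 in KO, and the eye factor Vax2 865.8 and 1063 in WT and 980.8 and 1050 in KO, both with overlapping groups.

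**Figure D3:**
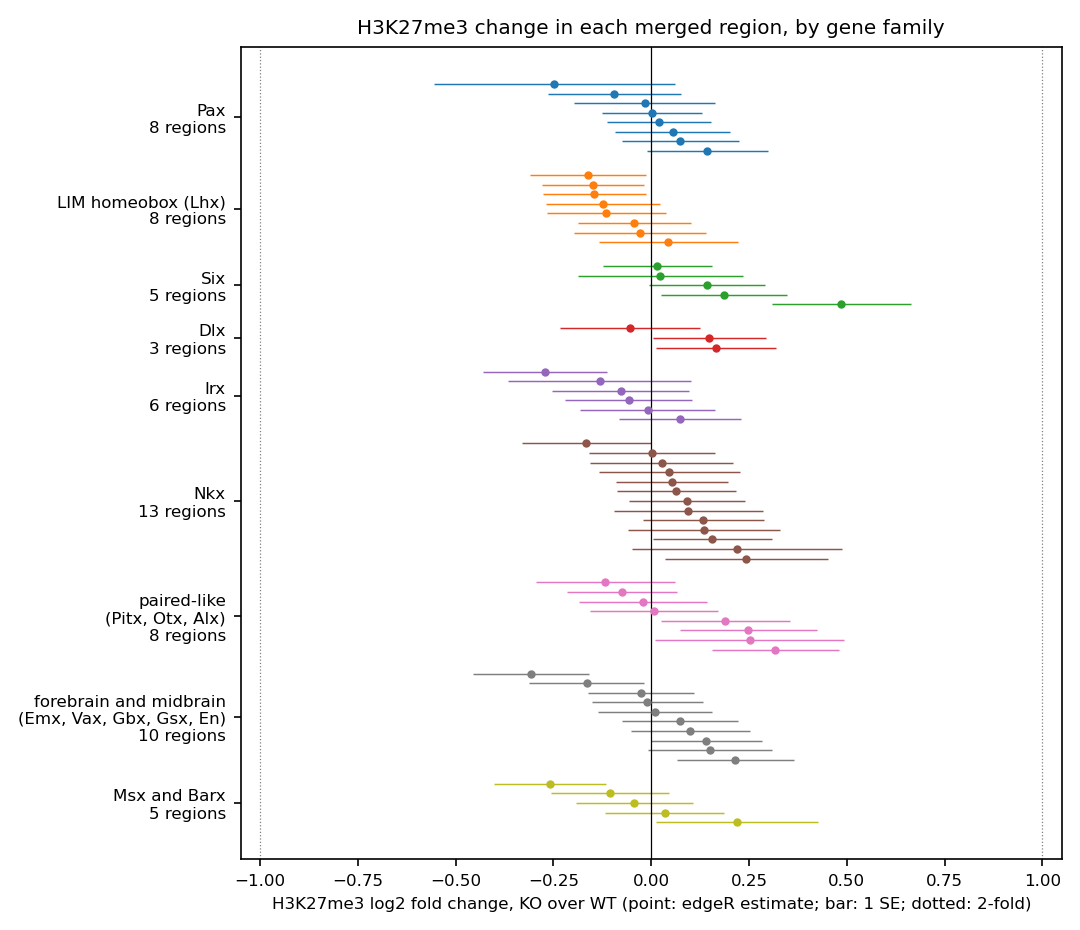
H3K27me3 log2 fold change of KO over WT (horizontal axis; bars are 1 SE of the edgeR estimate, 2 WT and 2 KO libraries) for the 66 merged regions, grouped by gene family (vertical axis) and sorted within a family. Points lie on both sides of 0 between -0.31 and 0.49, and no bar reaches the dotted lines of a 2-fold change.

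SICER cut the same domain into different numbers of islands in different libraries. Of the 66 regions 28 and 25 were a single island in the WT libraries and 30 and 29 in the KO libraries. At Gbx2, a factor of the midbrain and hindbrain border, the islands over the gene window held 515 and 312 reads in the WT libraries but 1022 and 1090 reads in the KO libraries. The merged region of Gbx2, chr1:89919001-89983000 in mm10, held 755.8 and 663.8 CPM in WT and 789.9 and 775.7 in KO (0.14, SE 0.14, edgeR adjusted p = 0.85). The window counts thus set KO well above WT at Gbx2, while the region that holds all of the islands did not pass the test.

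H3K27ac islands were rare at these genes. It had an island at 6 and 3 of the 71 genes in the WT libraries and at 5 and 4 in the KO libraries. In every library it marked 2 of 71 (2.82%, against 56.4% of all genes), namely Irx5 and Six5, and it met 63 (88.7%, against 36.1%) in no library. The Hox genes stood at 23.1% and the Sox, Fox and Tbx genes at 32.9% marked in every library. A library with no island has no count, so absence means that SICER called none there.

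At Irx5 the island lay upstream of the gene, over the long non-coding RNA gene Crnde. Its region, chr8:92354401-92356600, held 16.35 and 15.10 CPM in WT and 16.66 and 16.99 in KO (0.10, SE 0.21, edgeR adjusted p = 0.765). At Six5 the island lay over the start of the gene and reached into Dmpk, in the region chr7:19091401-19096800. It held 39.99 and 33.47 CPM in WT and 27.49 and 24.04 in KO, with both KO libraries below both WT libraries. The fold change of -0.51 (SE 0.18, unadjusted p = 0.0235) had an edgeR adjusted p of 0.076, in a test that called 26.0% of 18820 H3K27ac regions (12.0% were called higher and 14.0% lower in KO). Six5 and Irx5 were the members tested there, and 0 of these 2 passed with edgeR or DESeq2, against 26.0% and 24.2% of all H3K27ac regions. 1 of the 2 was at an unadjusted p under 0.05, against 38.4% of all.

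1 member lost H3K27ac and none gained it (1.42% and 1.08% of all genes). Nkx1-2, a homeobox gene of the caudal neural plate, held islands of 262 and 332 reads in the WT libraries and none in either KO library. They lay in chr7:132591401-132598200, partly over the body of the gene and for the larger part beyond its 3′ end, clear of its promoter, and overlapped H3K27me3 islands by 52.9% to 95.5% of their length. No fold change and no test are given, because the KO libraries list no value. Its H3K27me3 region held 222.4 and 328.5 CPM in WT and 335.9 and 315.8 in KO, with overlapping groups.

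Pax2 moved the other way without meeting the definition of a gain. An island in its last part, which also lies over the non-coding gene 1700039E22Rik, held 64 reads in WT replicate 1, none in WT replicate 2, and 481 and 340 reads in the KO libraries. The island covered chr19:44833601-44837000 and lay wholly under H3K27me3 islands of the same genotype. The other islands were small. Nkx2-3 held 72 reads in WT replicate 1 and 125 in KO replicate 1, Gbx2 69 in WT replicate 1, Lhx9 71 in KO replicate 1 and Pax8 59 in KO replicate 2.

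UTX islands met 19 and 18 of the 71 genes in the 2 WT libraries (26.8% and 25.4%, against 46.3% and 49.5% of all genes). A gene was called occupied when both UTX libraries and no IgG island met it, which held for 11 of 71 (15.5%) against 37.7% of all genes. The call does not ask that the islands of the 2 libraries overlap, and at Lhx4, Dlx2 and Emx2 they lay apart. Hox genes stood at 10.3% and Sox, Fox and Tbx genes at 26.3%. The IgG library itself met 2 members, Pax3 and Pitx1 (4.32% of all genes). The occupied genes included Lhx2, Lhx4 and Lhx8 among the LIM factors, Six5, Dlx2, Irx5, Nkx6-2, the paired-like genes Otx1 and Pitx3, and Emx2.

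UTX islands at these genes were weak. They held 17 to 80 reads (median 29, against 42 for all islands of the library) in replicate 1 and 28 to 145 (median 60, against 75) in replicate 2. The strongest single island in replicate 2 was at Six5 (61 and 145 reads in replicates 1 and 2), followed by Nkx1-2 (no island and 118 reads). Summed over 2 islands each, Nkx2-3 held 167 reads and Lhx5 125 in replicate 2, with no island in replicate 1. Irx5 had 71 and 97 reads over the same Crnde stretch as its H3K27ac, and Pitx3, a factor of dopaminergic neurons and lens, 80 and 74. Further occupied genes, summed over their islands, held 60 and 60 reads at Lhx2, 27 and 68 at Lhx4 and 46 and 54 at Lhx8. Otx1 held 35 and 67, the cortical gene Emx2 32 and 59, Dlx2 23 and 45 and Nkx6-2 27 and 48. In all, 19 of 21 UTX islands of replicate 1 and 20 of 21 of replicate 2 lay wholly under H3K27me3 islands of both WT libraries. In replicate 1 the other two were at Six5 and at Alx4, and in replicate 2 the remaining one was at Six5. The mean H3K27me3 cover of the 71 windows was itself 89.4% in WT. Most positions in them lie under H3K27me3, so these counts do not show that UTX and the mark go together.

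Promoter sequence could be read for 58 start windows of 47 members from the RefSeq promoter table (GRCm38.p6, 250 bases before to 50 bases after each start). H3K27me3 islands of all 4 libraries met 57 of 58 windows (98.3%, against 13.9% of 21263 windows of all protein-coding genes). An H3K27ac island of any library met 3 (5.17%, against 55.5%), at Six5, Gbx2 and Nkx2-3. UTX islands of both libraries met 4 (6.9%, against 31.7%), at Six5, Lhx8, Nkx6-2 and the second annotated start of Lhx2. The 1 window outside H3K27me3 in some libraries was that of Six5. A UTX island of at least 1 library met 10 (17.2%, against 44.8%). The 250 bases before the start are printed for the 4 genes where UTX islands of both libraries met the promoter window. They are given on the strand of the gene, with each CG dinucleotide in capitals.
Six5 (chr7:19094294-19094543, + strand): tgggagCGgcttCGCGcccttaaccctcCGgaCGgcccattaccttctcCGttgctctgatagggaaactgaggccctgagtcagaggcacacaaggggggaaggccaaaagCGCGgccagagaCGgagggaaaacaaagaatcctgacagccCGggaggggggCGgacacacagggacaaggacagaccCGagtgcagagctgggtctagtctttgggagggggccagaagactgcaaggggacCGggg
Lhx2, second start (chr2:38351058-38351307, + strand): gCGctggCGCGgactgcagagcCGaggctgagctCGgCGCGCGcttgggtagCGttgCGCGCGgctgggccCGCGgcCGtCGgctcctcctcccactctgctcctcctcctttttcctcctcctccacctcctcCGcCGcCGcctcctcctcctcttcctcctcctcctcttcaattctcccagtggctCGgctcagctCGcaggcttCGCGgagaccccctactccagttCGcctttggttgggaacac
Lhx8 (chr3:154330561-154330810, - strand): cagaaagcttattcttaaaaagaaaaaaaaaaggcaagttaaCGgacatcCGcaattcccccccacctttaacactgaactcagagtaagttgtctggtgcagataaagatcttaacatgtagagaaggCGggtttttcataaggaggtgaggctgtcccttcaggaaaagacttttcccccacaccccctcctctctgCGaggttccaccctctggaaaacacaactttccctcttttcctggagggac
Nkx6-2 (chr7:139582798-139583047, - strand): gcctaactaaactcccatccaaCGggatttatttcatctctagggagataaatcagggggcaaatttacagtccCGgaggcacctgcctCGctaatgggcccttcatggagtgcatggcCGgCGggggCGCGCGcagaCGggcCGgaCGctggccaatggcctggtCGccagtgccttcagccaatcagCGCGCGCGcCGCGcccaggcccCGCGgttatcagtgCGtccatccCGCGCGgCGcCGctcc

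In base composition Lhx8 stood apart from the other stretches, with fewer CG dinucleotides and less G and C. They held 13 CG dinucleotides at Six5, 24 at the Lhx2 start, 4 at Lhx8 and 26 at Nkx6-2, with a G and C content of 62.8%, 68.4%, 46.0% and 65.2%. Over the 58 member windows of 300 bases the median was 18.5 CG dinucleotides and 61.3% G and C, against 13 and 56.3% for all windows. 3 short motifs were searched on both strands. The ETS motif CCGGAAG was found in 3.45% of member windows and 11.6% of all windows, the GATA motif AGATAA in 12.1% and 9.65%, and the homeodomain motif TAATTA in 6.9% and 4.53%. Lhx8 and Nkx6-2 held the GATA letters, and none of the 4 held the other two motifs.

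Six5 and Irx5 were the members with H3K27me3, H3K27ac and UTX islands in every library of each, and at Six5 they met at the start of the gene. In WT replicate 1 the H3K27me3 of Six5 stopped at chr7:19093400 and resumed at 19094801, leaving the start of the gene and the sequence of its promoter in a gap. KO replicate 1 had the same kind of gap, from 19093200 to 19094801, while WT replicate 2 and KO replicate 2 had 1 unbroken island across it. The gap therefore divided the libraries by replicate number and not by genotype. H3K27ac islands of all 4 libraries and both UTX islands lay over the gap. Upstream, the H3K27me3 stretch that ends at the gap in KO replicate 1 (22.6 kb, 980 reads) was broken into several islands of 2.0 to 10.4 kb in WT replicate 1.

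**Figure D4:**
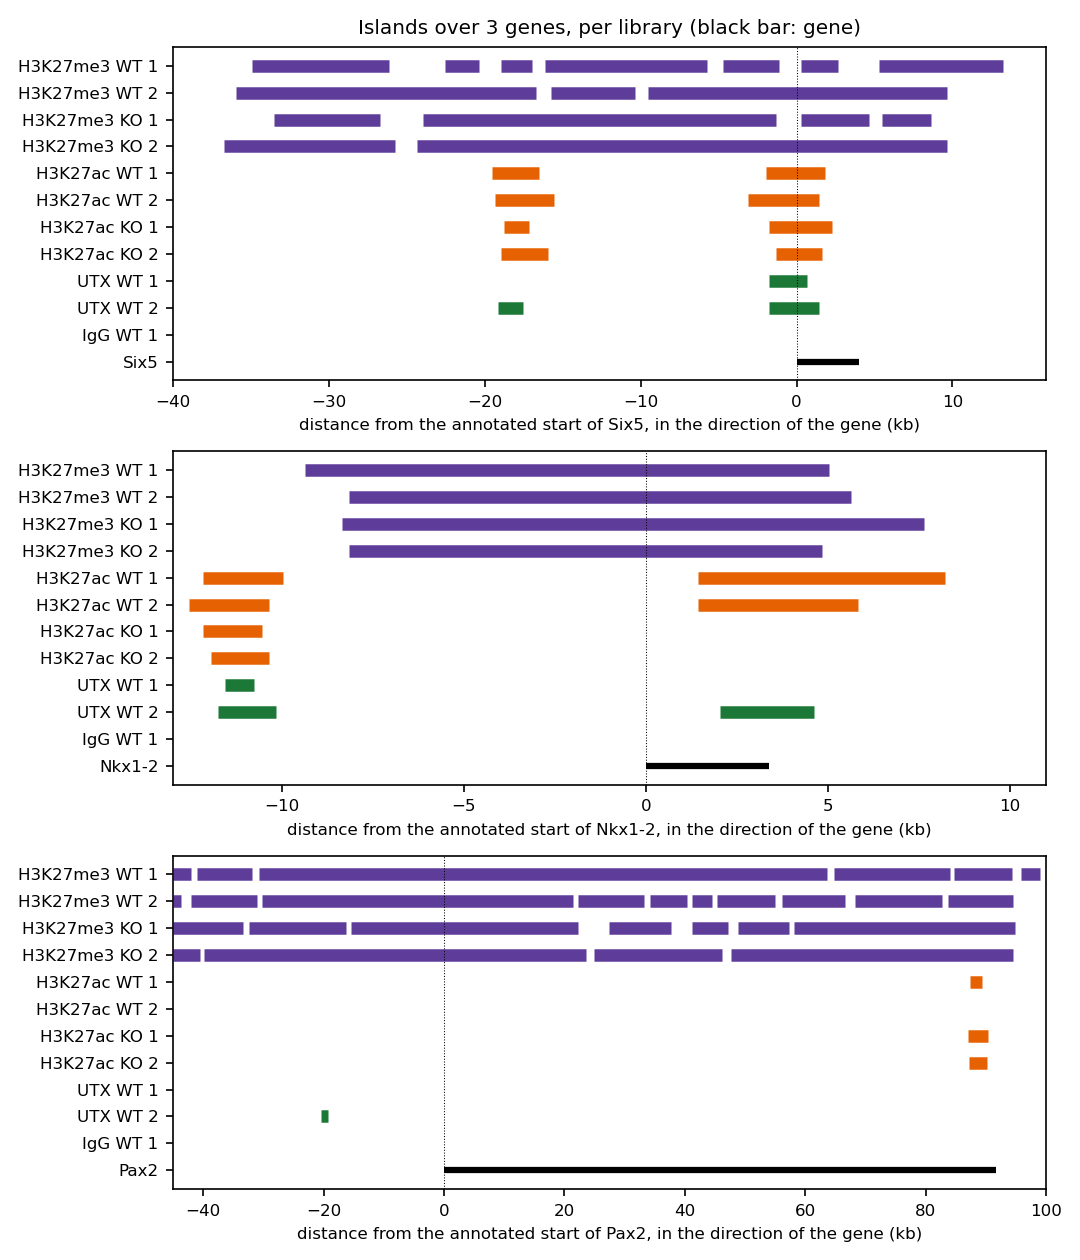
Islands (bars) of each library (vertical axis) around Six5, Nkx1-2 and Pax2, by distance from the annotated start in the direction of the gene (horizontal axis, kb), with the gene as a black bar. At Six5 all H3K27ac libraries and both UTX libraries have an island over the start, at Nkx1-2 the H3K27ac bars across its 3′ end are present in the 2 WT libraries only, and at Pax2 they are present in 1 WT and both KO libraries.

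In H3K27ac, genes for the cofactors of these proteins passed the test in both directions. A list of 25 partner genes (Eya and Dach, which act with sine oculis factors, Ldb and Lmo, which act with LIM factors, the Tle corepressors, and Pbx, Meis and Pknox, which bind DNA beside homeodomains) had 17 tested H3K27ac regions. Of these 4 rose and 5 fell in KO by edgeR, with a median fold change of 0.13 on the log2 scale, while 12.0% of all H3K27ac regions rose and 14.0% fell with a median of 0.00. Lmo4 rose from 171.4 and 156.0 to 275.5 and 290.4 CPM (0.79, SE 0.08, edgeR adjusted p = 0.00103), and Eya3 (0.57), Tle1 (0.54) and Pbx3 (0.49) rose too. Eya2 fell from 31.41 and 32.26 to 12.75 and 10.77 CPM (-1.43, SE 0.20, edgeR adjusted p = 0.00288). Lmo2, a progenitor and erythroid cofactor, fell from 666.0 and 737.5 to 431.7 and 399.2 CPM (-0.76), and Ldb1 (-0.68) and Meis1 (-0.46) fell too. Eya4 (126 and 177 reads in WT) and Lmo1 (87 and 141) lost their H3K27ac islands, and Lmo3 (101 and 102 reads in KO) and Dach2 (60 and 57) gained them. That is 2 of 25 lost and 2 of 25 gained, against 1.42% and 1.08% of all genes.

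In H3K27me3 the partner list had 11 tested regions, of which 0 were called by edgeR, and 10 of 25 genes were marked in every library. Eya1 and Dach2 had no H3K27me3 island in WT and islands of 80 and 72 and of 151 and 392 reads in KO. They were 2 of 25 gained, with 0 lost, against 0.429% and 1.95% of all genes. The Polycomb list, 21 genes for the writers, readers and erasers of H3K27me3, had H3K27ac islands at all 21 in every library. In H3K27ac 3 of them rose in KO by edgeR, among them Rnf2 (0.33) and Phf19 (0.57), and 1 fell, Cbx7 (-0.40). These 4 of 21 regions stand beside 26.0% called over all H3K27ac regions, so the count says nothing particular about the list. The other 17 did not pass, among them Ezh2 (-0.18, SE 0.09, edgeR adjusted p = 0.209) and the second demethylase gene Kdm6b (0.24, SE 0.10, adjusted p = 0.133). None of its 9 tested H3K27me3 regions was called.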

How the data were processed

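ChIP-seq islands had been called by the authors with SICER on mouse build mm10, per the submitters' processing notes. The SICER version, aligner, gap size and control are not given in the sources used here. The deposited files list per island the counts of reads, as whole numbers, called per library. Of 14 samples 11 had a file, and the other 3 were not used here.

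Only islands on chromosomes 1 to 19, X and Y were used. Genes were RefSeq protein-coding genes of GRCm38.p6. Regions merged over the 4 libraries of a mark, with an island in all 4, were compared in edgeR 4.0.16 (R 4.3.3) by a two-sided quasi-likelihood F test after TMM scaling, with Benjamini-Hochberg adjustment over all regions and a threshold of 0.05, with DESeq2 1.42.0 as an alternative. A gene took the tested region with the most reads in its span plus 2 kb, and CPM are scaled to reads in tested regions and rpm to all island reads. The SE was derived from the F statistic. Both fits were tested on simulated data. Intervals of fold changes cover the spread between libraries as the model estimates it.

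Members and lists were chosen with earlier results of these data known. Named were members that passed a test or were lost or gained, the 10 with the highest H3K27me3 rpm, those with H3K27ac islands in both libraries of a genotype, and those occupied by UTX, as well as partner and Polycomb genes that passed, were lost or gained. Other members, such as those with the extreme fold changes (Emx1, Irx3, Barx1), the lowest cover or single islands, were chosen after their values were seen. A few genes that the rule would name are not reported here.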

Additional observations from a re-analysis of the deposited data

How the results depend on the processing

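None of the 66 H3K27me3 regions of the homeobox and Pax genes was called under any of 12 alternatives, nor was any of the 71 genes called lost or gained in H3K27me3. Genome-wide the H3K27me3 calls went from 1 to 33 with DESeq2, 10 without TMM, 0 with regions in at least 2 libraries, 277 with no filter, 4 per covered length, 0 in gene windows, 2 with stricter islands, and 0 to 7 with 1 library left out. The H3K27ac calls went from 4889 to 8514 with regions in at least 2 libraries, 338 per covered length, 2300 in gene windows, and 2596 to 3265 with 1 library left out. Without TMM the H3K27ac split was 3268 higher and 2069 lower, against 2258 and 2631, and the median of all regions shifted to 0.12 in both marks. H3K27ac calls among members went from 0 to 1 (Nkx1-2) with regions in at least 2 libraries and with no filter, where its missing KO islands enter as 0 reads, so the call restates that SICER called no island there.

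Fold changes of H3K27me3 turned sign per covered length at Emx1 (to 0.22), Irx3 (0.68) and Barx1 (0.30), and in gene windows at Irx3 (0.55) and Barx1 (0.16), and the cause was not tested. In gene windows 55 of 71 members had a sign higher in KO (median 0.12, all genes 0.00), without TMM 54 of 66 (0.14, all regions 0.12), and per covered length 53 of 66 (0.13, all regions 0.11), with none called.

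Members with H3K27ac in every library numbered 1 without the flank, 4 with 5 kb (Lhx1 and Pitx3 added), 1 where islands cover at least 10% of the window, and 2 to 3 with 1 library left out (Pax2 added without WT replicate 2). Lost members numbered 1 to 2 (Gbx2 added without WT replicate 2) and gained members 0 to 1 with 1 library left out, the gains being Pax2 without WT replicate 1, Pax8 without KO replicate 1 and Lhx9 without KO replicate 2. UTX-occupied members fell to 7 where islands cover at least 10%, 4 with stricter islands and 7 with equal list lengths, and numbered 11 to 18 with 1 library left out. Mean H3K27me3 cover in WT was 90.4% without the flank, 86.2% with 5 kb, and 88.4% with stricter islands and with equal list lengths, and in KO 84.2% with 5 kb.

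The label numbers were not shown to pair the libraries, since deviations of same-numbered libraries correlated at -0.05 for H3K27me3 and 0.05 for H3K27ac. With the replicate number as a block, 0 H3K27me3 and 5498 H3K27ac regions were called, and 0 of the members.

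Limits: island lists hold no reads outside islands, so a level below SICER's threshold cannot be told from none, and a gene near the threshold can be marked in 1 library and unmarked in the next. UTX and IgG were shallower than the histone marks, and UTX was measured in WT only. With 2 libraries a group, small shifts such as those of the Lhx, Irx and Nkx regions could not be told from the spread between WT libraries.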
